A study of Mus musculus with 3 samples.

Results

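Haem oxygenase and the genes that store and move iron were followed in macrophages sorted from mouse mammary tumours. The genes were taken by name: Hmox1, Blvra, Blvrb, Slc48a1, Tfrc, Trf, Slc11a1, Fth1, Ftl1 and Slc40a1, which are 10 of the 31053 genes counted in each of 3 libraries. Each library came from the tumour of a different mouse of the strain FVB/N-Tg(MMTVPyVT)634Mul/J, in which a mouse mammary tumour virus promoter drives the polyoma middle T oncogene in mammary epithelium. All 3 mice carried the transgene, every tumour had reached 750 mm3, and macrophages of tumour-free mammary tissue were not analysed here, so the contrasts below are between groups of macrophages within a tumour. Tumours were digested with collagenase for 60 min at 37 °C and cells were sorted as CD45+ Ly6G- CD11b+ F4/80+.

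The cells used had 500 genes or more, with mitochondrial RNA making up 15% of counts or less, and numbered 663, 2108 and 6978 cells of mice 1, 2 and 3 and 9749 in all, with medians of 15014, 13600 and 9318.5 unique molecular identifiers (UMIs) per cell. Mouse 1 stood apart in quality, since 36.0% of its barcodes exceeded the mitochondrial limit, against 12.1% in mouse 2 and 4.13% in mouse 3. Clustering without the 10 genes and without the other genes of iron and haem handling gave 17 clusters. Clusters 0 to 15 (9688 cells) were taken as macrophages, and their 8 macrophage markers summed to between 17093 and 32774 CPM (UMIs per 1000000 UMIs of a mouse or cluster) as means of the mice. Cluster 16 (50 cells) carried markers of tumour epithelium, had 6689 ± 2261 CPM of the macrophage markers (SD, n = 2 mice) and served as a view of background RNA. Clusters 0 and 13 were shallow, with medians of 1898.5 and 1676.5 UMIs, and values from them are the least certain. Mice 2 and 3 shared 7 cell barcodes, and mouse 1 shared none.

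Macrophages take up dying red cells, and haem oxygenase 1, the product of Hmox1, opens the haem ring to release iron, carbon monoxide and biliverdin. Biliverdin is reduced to bilirubin by biliverdin reductases, and the iron is either stored in ferritin, a shell of heavy (Fth1) and light (Ftl1) chains, or leaves the cell through ferroportin, the product of Slc40a1. Iron bound to transferrin (Trf) enters cells through the transferrin receptor (Tfrc).

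Part of this control acts on RNA, at a stem and loop called the iron-responsive element, which is bound by iron regulatory proteins when iron is scarce. In the 5′ UTR of ferritin and ferroportin RNA such binding blocks translation, and in the 3′ UTR of Tfrc RNA it protects the RNA from decay. The elements are shown because a UMI count reports RNA only, so that for Fth1, Ftl1 and Slc40a1 it leaves this step unseen while for Tfrc it includes it. A search of GENCODE transcripts on build mm10 for a 30-base stem and loop (a C, then 5 bases, then the loop CAGTGN whose last base is not G, then 5 bases pairing with the 5 before the loop, with at least 4 of 5 pairs below the bulged C) found it in 4 of the 10 genes. Fth1, Ftl1 and Slc40a1 had 1 site each, in the 5′ UTR, and Tfrc had 4 sites, in the 3′ UTR. The loop is in capitals, and each sequence is given 5′ to 3′ on the strand of its gene.
Fth1 5′ UTR, chr19:9982732-9982761, plus strand: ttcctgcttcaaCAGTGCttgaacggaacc
Ftl1 5′ UTR, chr7:45459778-45459807, minus strand: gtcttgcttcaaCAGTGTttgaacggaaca
Slc40a1 5′ UTR, chr1:45925464-45925493, minus strand: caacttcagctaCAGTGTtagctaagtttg
Tfrc 3′ UTR, chr16:32631219-32631248, plus strand: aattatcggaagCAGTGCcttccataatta
Tfrc 3′ UTR, chr16:32631598-32631627, plus strand: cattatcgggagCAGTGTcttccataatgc
Tfrc 3′ UTR, chr16:32631663-32631692, plus strand: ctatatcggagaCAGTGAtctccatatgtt
Tfrc 3′ UTR, chr16:32631710-32631739, plus strand: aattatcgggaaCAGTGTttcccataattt
The same pattern occurred in the 5′ UTRs of 6 of 20916 protein-coding genes (0.0287%) and in the 3′ UTRs of 7 of 21707 (0.0322%). Hmox1, Blvra, Blvrb, Slc48a1, Trf and Slc11a1 had no match to these letters in their annotated UTRs.

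Ferritin RNA was among the most abundant RNA of these macrophages, while the RNAs of the iron importer and of the exporter were rare. UMIs count captured 3′ ends of transcripts, so levels of different genes were set side by side without a length correction. Of the haem-degrading genes, Hmox1 was at 300.4, 281 and 334 CPM in mice 1, 2 and 3, a mean of 305 ± 26.6 (SD, n = 3). The reductase gene Blvrb was at 225 ± 4.83 CPM (SD, n = 3), and Blvra, whose product reduces the main biliverdin isomer, was at 96.8 ± 2.62 CPM (SD, n = 3). Slc48a1, whose product carries haem out of the lysosome, was at 55.2 ± 1.67 CPM (SD, n = 3). These 4 genes kept the same order in every mouse, and none of their ranges overlapped.

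The genes of iron uptake were spread widely. Trf was at 681, 491 and 609.9 CPM (594 ± 96.0, SD, n = 3), and Slc11a1, a phagosomal metal transporter, was at 154, 139 and 220 CPM (171 ± 43.1, SD, n = 3), highest in mouse 3. Tfrc was at 6.01, 5.53 and 5.23 CPM (5.59 ± 0.394, SD, n = 3), the lowest of the 10 genes. Fth1 was at 16224, 13701 and 15535 CPM (15153 ± 1304, SD, n = 3), the fifth most abundant RNA by UMIs. Ftl1 was at 13669, 11199 and 10647 CPM (11838 ± 1609, SD, n = 3) and ranked seventh. The ratio of Fth1 to Ftl1 UMIs in macrophages was 1.19, 1.22 and 1.46 in mice 1, 2 and 3. Ftl1-ps1, a processed copy of Ftl1 counted as a gene of its own, had 0.00518, 0.0049 and 0.0221 times the UMIs of Ftl1, and how reads were split between the copies was not tested. Slc40a1 was at 20.1, 10.9 and 13.4 CPM (14.8 ± 4.75, SD, n = 3), so that the ranges of Slc40a1 and Tfrc did not overlap but lay within an order of magnitude.

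**Figure D1:**
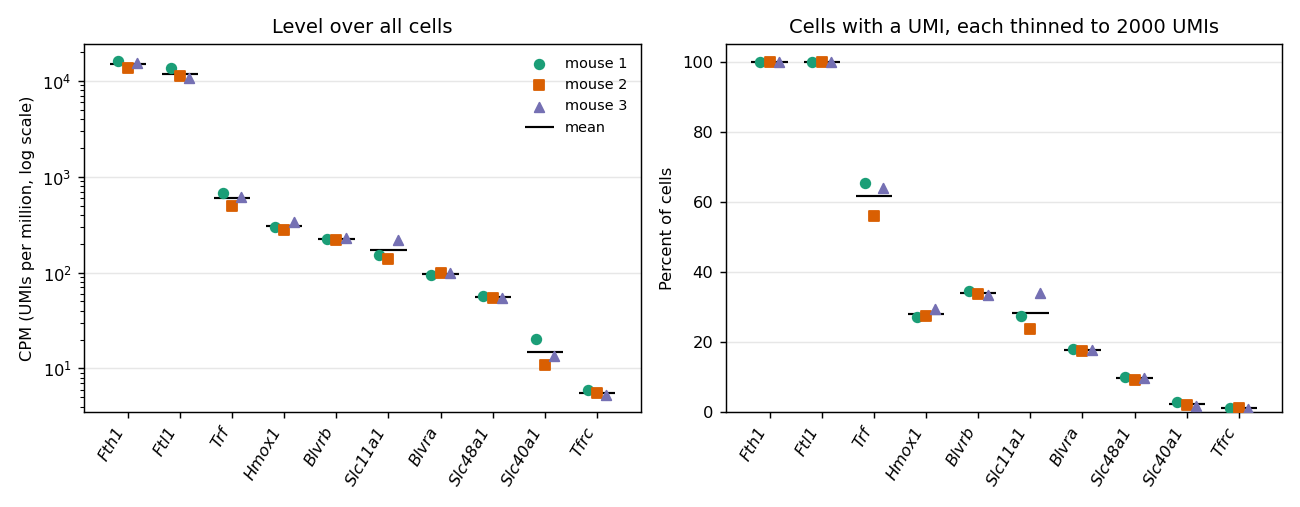
Left, level of each gene in CPM on a log scale over all cells of a mouse. Right, percent of all cells with at least 1 UMI after each cell was thinned to 2000 UMIs. Points are mice and the bar is their mean. Fth1 and Ftl1 lie above the other genes in every mouse, and Slc40a1 and Tfrc lie lowest.

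How many cells showed a gene depended on depth. As sequenced, 65.0% ± 1.81 of cells (SD, n = 3) had a UMI of Hmox1. After each cell was thinned to 2000 UMIs, which left out 419 cells with fewer, the share was 28.05% ± 1.34 (SD, n = 3). The thinned share was 33.9% for Blvrb, 28.4% for Slc11a1, 17.7% for Blvra, 9.66% for Slc48a1, 61.8% for Trf, 2.28% for Slc40a1 and 1.17% for Tfrc, as means of 3 mice. Fth1 and Ftl1 had a UMI in nearly every cell.

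The tumour epithelium-like cells gave a measure of background, at a median of 4537.5 UMIs against 10224 in the macrophages. Hmox1 had a UMI in 16% of them (exact 95% binomial interval 7.17% to 29.1%, counting error only) at 19.2 CPM, and Slc40a1 in 4% at 5.77 CPM. Tfrc had a UMI in 16% of the epithelium-like cells, above its 6.94% ± 1.70 of all cells (SD, n = 3). Epithelium can itself express Tfrc and so is no blank for it, but a Tfrc share this low is not read here as expression in any single cell. Trf reached 7449 CPM in the epithelium-like cells, and transferrin is a secreted protein of mammary epithelium. Macrophages had 32.2 Trf UMIs per UMI of the milk protein gene Csn3, where the epithelium-like cells had 0.453, and the ratio in macrophages was 68.1, 35.2 and 29.01 in mice 1, 2 and 3. The part of epithelial RNA in the Trf level of macrophages was not tested.

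In barcodes removed for a mitochondrial share above 15%, Fth1 stood at 4044, 3332 and 4909 CPM and Hmox1 at 188, 150 and 247 CPM, each below the kept cells of the same mouse. Trf stood higher there than in kept cells in all 3 mice, at 827, 678 and 845 CPM.

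Hmox1 RNA was unevenly spread over cells. The 1% of cells with the most Hmox1 UMIs held 25.2%, 22.6% and 26.2% of all Hmox1 UMIs in mice 1, 2 and 3. For Slc40a1, which had far fewer UMIs, the same share was 35.7%, 34.6% and 35.02%, and for Tfrc it was 22.4%, 29.6% and 37.6%. In cells thinned to 2000 UMIs the variance of Hmox1 was 7.87, 7.55 and 8.17 times its mean. For Slc40a1 the ratio was 1.08, 1.16 and 1.51, and for Tfrc 0.989, 1.22 and 1.18. For Blvra the same ratio was 0.997, 1.01 and 0.994, where independent sampling of a fixed level gives a ratio near 1, and for Blvrb it was 1.03, 1.04 and 1.22. Fth1, at a far higher mean, had ratios of 15.04, 9.49 and 8.64. In thinned macrophages 73.1%, 72.2% and 70.4% had no Hmox1 UMI and 17.5%, 18.5% and 18.3% had 1, whereas 0.0505% of mouse 2 and 0.105% of mouse 3 had 40 or more.

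**Figure D2:**
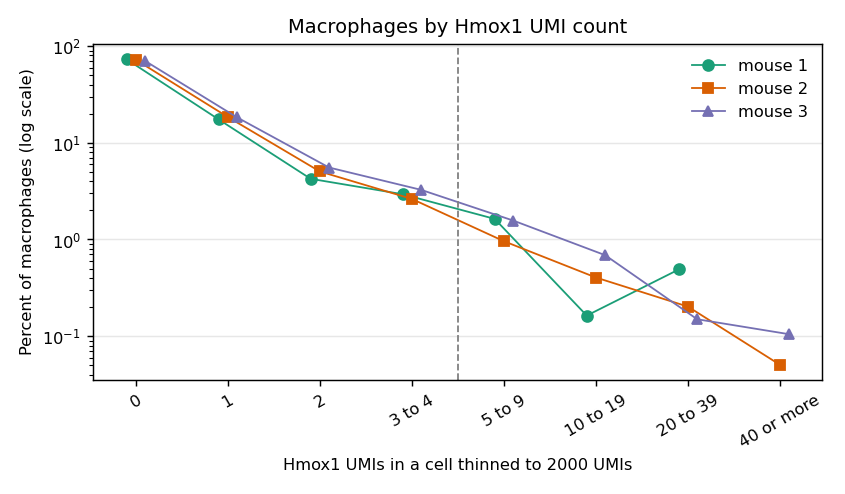
Percent of macrophages (log scale) by number of Hmox1 UMIs in a cell thinned to 2000 UMIs, with 1 line per mouse. The dashed line is the limit of 5 UMIs used below. Most cells of each mouse lie at 0, and a tail reaches 40 or more UMIs in mice 2 and 3.

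Differences between macrophage states were tested on UMIs summed per mouse and cluster, 45 sums in all, each cluster against the unweighted mean of the others with the mouse as a block (edgeR's quasi-likelihood test, Benjamini-Hochberg adjusted over 8885 genes in each cluster, threshold 0.05). Changes are given as log2 fold changes from this fit. Of 160 pairs of gene and cluster, 28 were called higher and 16 lower, and 116 passed in neither direction. Among all genes tested, 12.3% of pairs were called higher and 4.91% lower. In 41 of the 44 calls every mouse fitted had the sign of the call. Cluster names ending in -like rest on marker genes that were fixed for naming, and clusters 8, 9 and 15 had too few cells of mouse 1 and rest on mice 2 and 3.

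**Figure D3:**
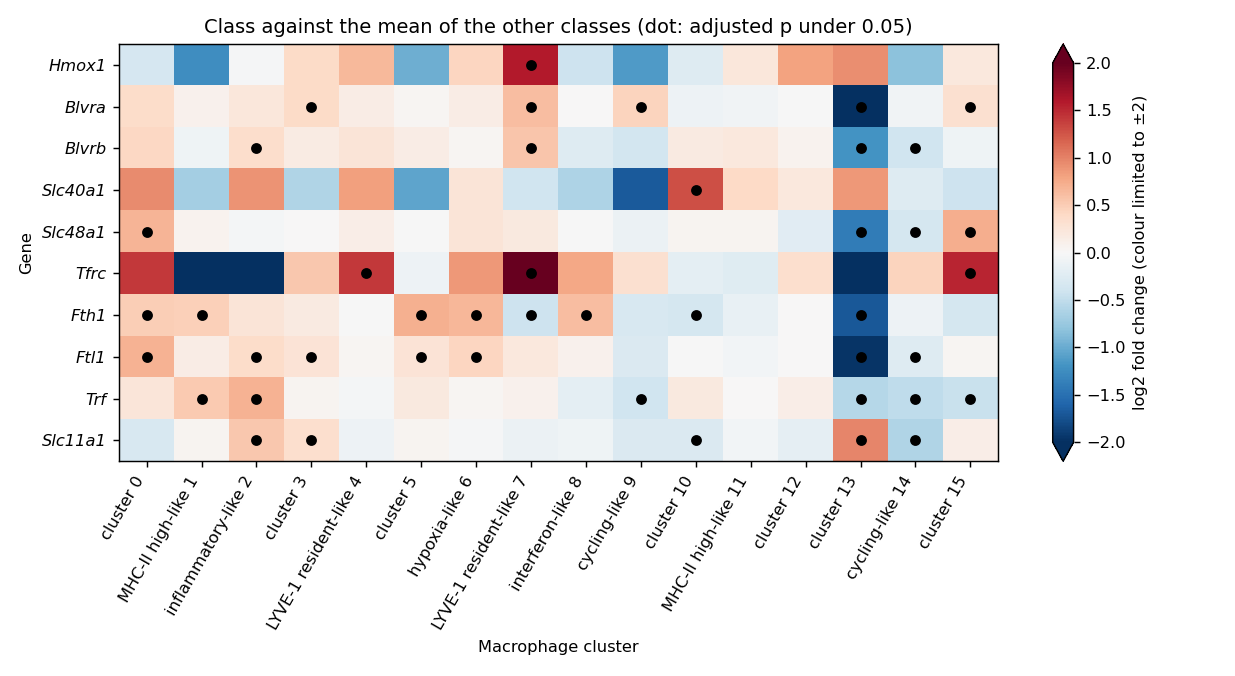
Log2 fold change of each gene (rows) in each macrophage cluster (columns) against the mean of the other clusters, with colour limited to 2 in either direction and a dot where the adjusted p was under 0.05. Calls spread over all 10 genes, and cluster 13, a shallow cluster, holds the darkest blue for the ferritin genes.

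The haem-degrading genes were called higher together in cluster 7, one of 2 clusters with LYVE-1 resident markers, which mark perivascular and tissue-resident macrophages. Hmox1 was at 552, 674 and 992 CPM there, against a mean of 277 over the other sums. It was the highest of the clusters in mice 1 and 3, although in mouse 1 hypoxia-like cluster 6 (545 CPM) and LYVE-1 resident-like cluster 4 (527 CPM) were close. The log2 fold change was 1.58 (SE 0.32, adjusted p = 0.000335, edgeR's quasi-likelihood test), and without mouse 3 it was 1.5 and was no longer called (adjusted p = 0.067). Cluster 7 was the only cluster in which Hmox1 was called, while 4 of the 10 genes were called higher there and 1 lower, beside 19.7% and 9% of all genes tested.

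Blvrb in cluster 7 was at 208, 334 and 342 CPM against a mean of 208.5 elsewhere (log2 fold change 0.56, SE 0.12, adjusted p = 0.00029, edgeR). Mouse 1 lay inside the range of the other clusters, and the call was lost without mouse 3 (0.49, adjusted p = 0.092). Blvra in cluster 7 was at 127, 138 and 123 CPM, and its log2 fold change of 0.61 (SE 0.10, adjusted p = 8.51e-07, edgeR) was kept under all 16 alternatives that gave a value. Blvra was also called higher in cluster 3 (0.38), cycling-like cluster 9 (0.45) and cluster 15 (0.33). These 3 calls were lost under 7 of 16, 4 of 14 and 7 of 15 alternatives, which for cluster 3 include leaving out mouse 2. Without the shallow clusters in the reference they were 0.23, 0.30 and 0.17 and were not called, and with at least 1000 genes per cell they were 0.24, 0.23 and 0.13. Cluster 3 had 3 of the 10 genes called higher, beside 10.7% of all genes, and cluster 9 had 1 higher and 1 lower, beside 17.9% and 5.94%. Hmox2, the constitutive haem oxygenase gene, and Por, whose product supplies its electrons, completed the list of haem degradation, of which 5 of 5 genes were called higher in cluster 7 with a median log2 fold change of 0.61. The median of all genes tested there was 0.08.

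Cluster 7 also stood high in genes switched on by tissue dissociation and heat. The summed level of 15 such genes was 9725 ± 1071 CPM (SD, n = 3) in cluster 7 and 20837 ± 2015 CPM in cluster 12, against 2438 to 8326 CPM in the other macrophage clusters. In cluster 12, led by Hspa1b and Hspa1a, Hmox1 was at 256, 575 and 484 CPM (log2 fold change 0.80, SE 0.36, adjusted p = 0.154, edgeR). None of the 10 genes was called in cluster 12 by edgeR or DESeq2, where edgeR called 13% of all genes, and 1 of 10 had an unadjusted p under 0.05. In MHC-II high-like cluster 11, where 3.28% of all genes were called, 0 of the 10 genes were called by edgeR or by DESeq2 and 0 had an unadjusted p under 0.05. Hmox1 in cluster 12 did pass with at least 1000 genes per cell (adjusted p = 0.0435), at Leiden resolution 1.5 (adjusted p = 0.0158) and without the filter on low counts (adjusted p = 3.97e-14). The fit without that filter used the same Hmox1 counts and differed only in which genes entered it. Its smaller p is not read as stronger evidence. The part of dissociation genes in the Hmox1 level was not tested.

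At the other end, Hmox1 was at 64.8, 88.9 and 161 CPM in MHC-II high-like cluster 1 (log2 fold change -1.25, SE 0.47, adjusted p = 0.134, edgeR) and at 127, 86.5 and 166 CPM in cluster 5, which is led by Il12b, Ccr7 and Ccl22 (-0.98, SE 0.42, adjusted p = 0.0989). Neither difference passed the threshold in this fit. Without the filter on low counts both did (edgeR, adjusted p = 1.33e-19 and 1.07e-14), on the same Hmox1 counts. Those smaller p-values are not read as stronger evidence either. Cluster 5 also passed with at least 1000 genes per cell (edgeR, adjusted p = 0.0476). In cluster 13 mouse 2 stood at 1758 CPM against 19.1 and 72.5 CPM in mice 1 and 3, and 1 cell with 112 Hmox1 UMIs made up most of that level, which was 42.1 CPM over the cluster without it. A check added after seeing the data took the cell with the most Hmox1 UMIs from every cluster and mouse. In edgeR, Hmox1 was then called higher in cluster 7 (1.96) and also in cluster 12 (1.27, adjusted p = 0.0025) and cluster 4 (1.12, adjusted p = 0.0071). The check lowers the reference too, and can take a larger part from clusters of few cells such as cluster 13. These calls are therefore not read as stronger than those of the main fit.

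**Figure D4:**
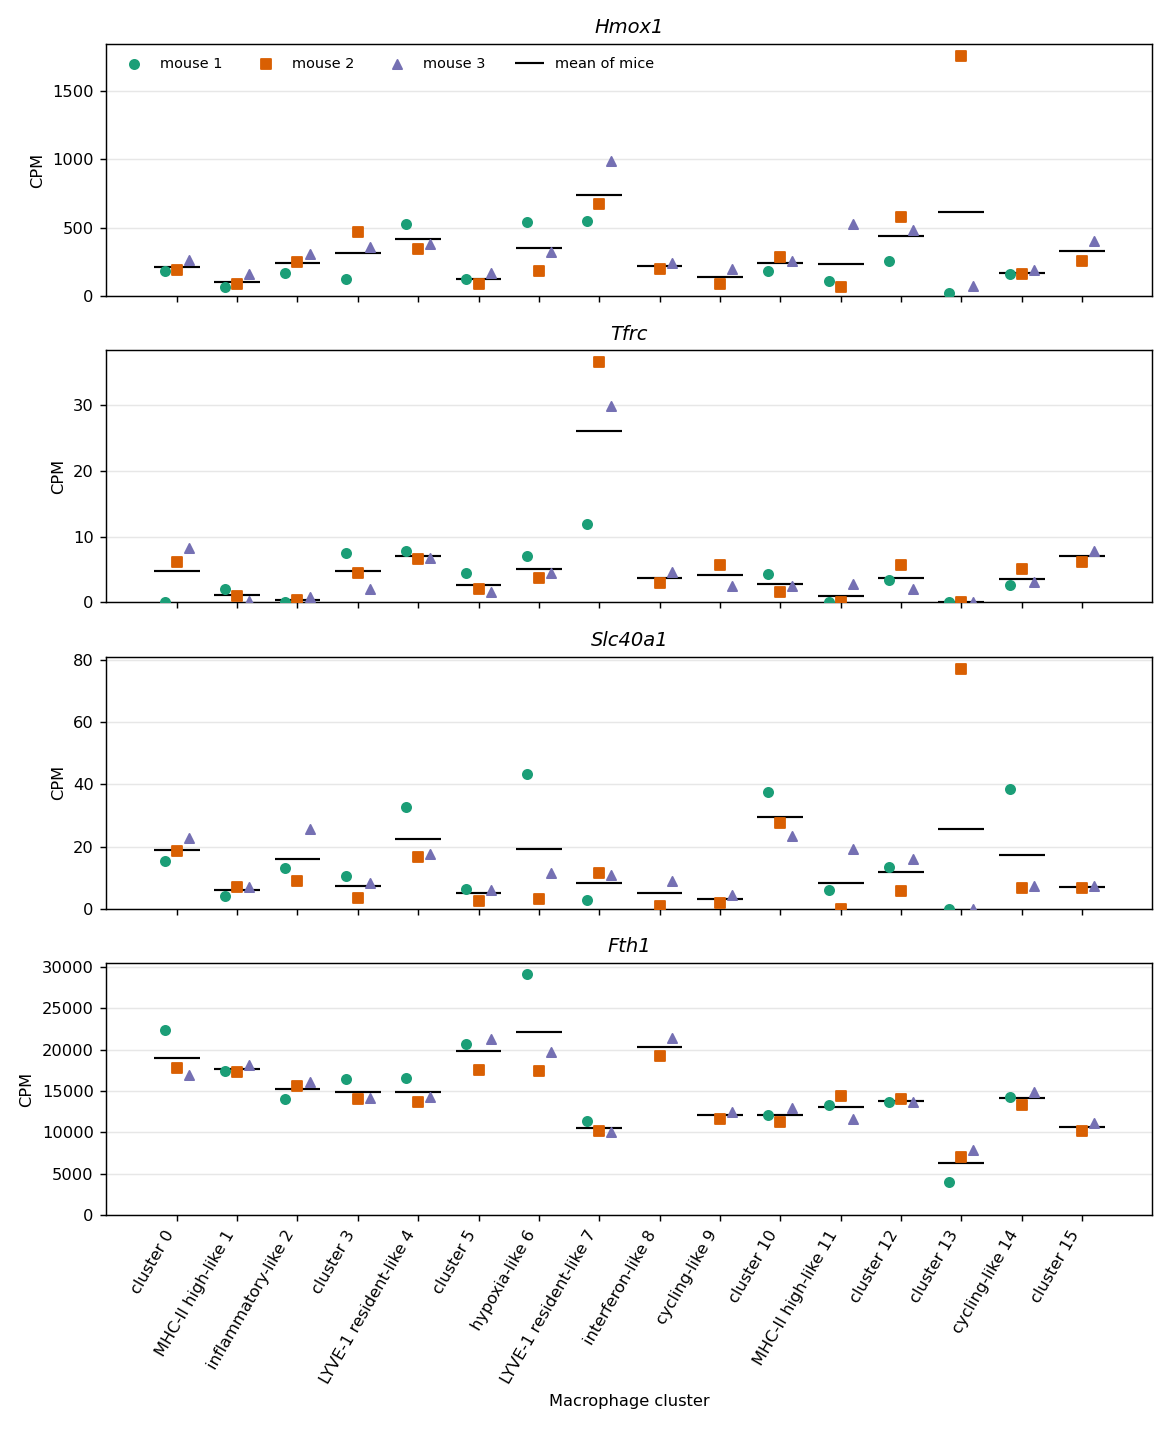
CPM of Hmox1, Tfrc, Slc40a1 and Fth1 in each macrophage cluster. Points are mice, bars are means, and axes start at 0. Cluster 7 has the highest Tfrc in all 3 mice, Slc40a1 in cluster 10 lies between 23.4 and 37.6 CPM, and the outlying Hmox1 and Slc40a1 points of cluster 13 are mouse 2.

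The transferrin receptor gene Tfrc was highest in cluster 7. It was at 11.96, 36.4 and 29.8 CPM there, and no other sum of mouse and cluster exceeded 8.24 CPM. The log2 fold change was 3.59 (SE 0.26, adjusted p = 7.65e-18, edgeR's quasi-likelihood test), kept under all 16 alternatives that gave a value. Cluster 13 had no Tfrc UMI in its 80 cells, so the fitted size depends on a prior count. Without the shallow clusters in the reference it was 3.27. After thinning, 5.28% of cluster 7 cells had a Tfrc UMI, against 2.21% or fewer in each of the other macrophage clusters.

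Smaller Tfrc rises were called in the other LYVE-1 resident-like cluster, cluster 4 (7.80, 6.62 and 6.81 CPM, log2 fold change 1.41, adjusted p = 0.00156, edgeR), and in cluster 15, led by Retnla and Ear genes (6.14 and 7.82 CPM, 1.53, adjusted p = 0.00243). In cluster 4 this was the only call, beside 8.55% of all genes called higher, and it was lost without mouse 2 (adjusted p = 0.058), without mouse 3 (adjusted p = 0.089) and with DESeq2's Wald test (adjusted p = 0.057). At Leiden resolution 0.5 both calls were lost, in cluster 4 (adjusted p = 0.216, edgeR) and in cluster 15 (log2 fold change 0.0494, adjusted p = 0.945). In inflammatory-like cluster 2 Tfrc was at 0, 0.361 and 0.767 CPM, and in cluster 1 at 2.02, 1.01 and 0.219 CPM. Against a reference that holds cluster 13, with no Tfrc UMI, the fit gave both an adjusted p of 1 (edgeR) with no usable error, and they are counted among the pairs that did not pass. With the shallow clusters left out of the reference, the calls in clusters 4 and 15 were kept (1.06 and 1.18), and Tfrc was called lower in cluster 2 (-2.42, adjusted p = 0.00068) and cluster 1 (-2.65, adjusted p = 0.013).

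Trf and Slc11a1 followed another pattern. Trf was called higher in inflammatory-like cluster 2, which had 1118, 539 and 815 CPM (log2 fold change 0.69, SE 0.10, adjusted p = 4.68e-07, edgeR), and in cluster 1, which had 818, 599 and 719.9 CPM (0.52, adjusted p = 0.000527). Mouse 2 had the lowest Trf in both, so the rise is seen within mice and the ranges of the clusters overlapped. Trf was called lower in cycling-like cluster 14 (457, 350.0 and 463 CPM, -0.51, adjusted p = 0.000216), in cycling-like cluster 9 (-0.40), in cluster 15 (-0.45) and in cluster 13 (-0.58). Without mouse as a block only the call in cluster 2 was kept. The call in cluster 1 was also lost without mouse 2, and that in cluster 13 without mouse 1.

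Slc11a1 was called higher in inflammatory-like cluster 2 (207, 176 and 312 CPM, log2 fold change 0.54, SE 0.09, adjusted p = 1.52e-05, edgeR) and cluster 3 (0.33), and highest in shallow cluster 13 (649.5, 216 and 543 CPM, 0.97). It was called lower in cycling-like cluster 14 (118, 107 and 159 CPM, -0.60, SE 0.10, adjusted p = 4.68e-06) and cluster 10 (-0.29). The call in cluster 13 was lost without mouse 1, those in clusters 3 and 10 without mouse 2 and without mouse 3, and those in clusters 2 and 14 without mouse as a block. Cluster 2 had 4 of the 10 genes called higher, beside 11.8% of all genes: Trf, Slc11a1, Ftl1 and Blvrb, the last 2 lost without mouse 2 and without mouse 3. Cluster 14 had 5 called lower, beside 6.69% of all genes: Blvrb, Slc48a1, Ftl1, Trf and Slc11a1. Of these, Blvrb was lost without mouse 3, and Slc48a1 and Ftl1 without mouse 2 and without mouse 3.

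Ferritin heavy and light chain RNA were called in partly different clusters. Fth1 was at 29178, 17365 and 19739.8 CPM in hypoxia-like cluster 6 (log2 fold change 0.66, SE 0.12, adjusted p = 0.000207, edgeR), where mouse 1 was highest, and the fold change without mouse 1 was 0.40 and still called. It was at 20680.2, 17571 and 21331 CPM in cluster 5 (0.71, SE 0.12, adjusted p = 2.82e-05) and at 19177 and 21412.5 CPM in interferon-like cluster 8 (0.62, SE 0.14, adjusted p = 0.00609). These 3 calls were kept under every alternative that gave a value. In cluster 8, Fth1 was the only call, beside 4.61% of all genes called higher.

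Fth1 was also called higher in cluster 1 (0.47), with 2 of the 10 genes called there beside 5.17% of all genes, and this was lost without mouse 2 and without mouse 3. It was called lower in 2 of the deeper clusters. In cluster 7 it was at 11345, 10227.5 and 10040.3 CPM (log2 fold change -0.41, SE 0.13, adjusted p = 0.0158, edgeR), and in cluster 10 at 12142, 11220.0 and 12899.6 CPM (-0.35, adjusted p = 0.0345). Both calls were lost without mouse 2 and without mouse 3. Ftl1 was not called in either cluster. It was called higher in cluster 6 (19415, 13158 and 12358.5 CPM, 0.42, adjusted p = 0.000924), cluster 2 (0.37), cluster 5 (0.28), cluster 3 (0.27) and shallow cluster 0 (0.69). The call in cluster 6 was lost without mouse 1, and those in clusters 2, 3 and 5 without mouse 2 and without mouse 3. Clusters 5 and 6 each had Fth1 and Ftl1 as their only calls, beside 17.3% and 11.8% of all genes called higher.

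Cluster 13 had 6 of the 10 genes called lower and 1 higher, beside 17.4% and 3.53% of all genes, with Fth1 at -1.69 and Ftl1 at -1.97 against a median of -0.78 over all genes tested. Cluster 0 had 3 called higher, beside 7.54% of all genes: Fth1 (0.49), Ftl1 (0.69) and Slc48a1 (0.69). The Fth1 and Slc48a1 calls of cluster 0 were lost without mouse 2 and without mouse 3. The Ftl1 call there was lost at Leiden resolution 0.5 (0.0571, adjusted p = 0.656) and when clusters and levels came from separate UMIs (0.19, adjusted p = 0.16). Clusters 0 and 13 differ from the others in depth, and the part of depth in these calls was not tested.

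Slc48a1, the haem transporter gene, was called higher in cluster 15, at 85.1 and 69.5 CPM in mice 2 and 3 (log2 fold change 0.72, SE 0.11, adjusted p = 5.26e-07, edgeR), kept under all 15 alternatives that gave a value. Shallow cluster 0 had 80.7 and 84.4 CPM in the same mice. Cluster 15 had 3 of the 10 genes called higher and 1 lower, beside 18% and 6.46% of all genes. Slc48a1 was called lower in cycling-like cluster 14 (-0.36, adjusted p = 0.0134), at 43.7, 46.4 and 42.6 CPM.

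Slc40a1, the exporter gene, was called in cluster 10 alone, which is led by Hhex, Calhm2, Il16 and Txnip. It was at 37.6, 27.6 and 23.4 CPM there against a mean of 12.1 elsewhere (log2 fold change 1.29, SE 0.33, adjusted p = 0.003, edgeR's quasi-likelihood test). The call was lost without mouse 2 (1.59, adjusted p = 0.18) and without mouse 3 (1.5, adjusted p = 0.065). Without the cell with the most Slc40a1 UMIs in each cluster and mouse the log2 fold change was 2.15. That check can take a larger part from clusters of few cells, so the rise is not read as a stronger call. Cluster 10 had 1 gene called higher and 2 lower, beside 26.2% and 8.81% of all genes. In mouse 1, Slc40a1 was as high in cluster 6 (43.2 CPM) and cluster 14 (38.5 CPM), where mice 2 and 3 had 3.17 to 11.6 CPM. In cluster 7, where Hmox1 and Tfrc were called higher, Slc40a1 was at 2.81, 11.6 and 10.7 CPM (-0.39, SE 0.48, adjusted p = 0.631).

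A further clustering of the LYVE-1 resident-like cells, made after the data had been seen, set apart a group with the highest level of LYVE-1 resident markers, led by Cd209d and Lyve1, of 17, 39 and 177 cells of mice 1, 2 and 3. In it Hmox1 was at 727, 1349.6 and 1355 CPM, Tfrc at 23.1, 73.5 and 54.5 CPM and Blvrb at 264, 405 and 462 CPM. Hmox1 and Tfrc were thus higher in this group than in the whole of cluster 7 in all 3 mice. Slc40a1 stayed low, at 3.30, 12.6 and 12.7 CPM. The dissociation genes summed to 13524 ± 972 CPM (SD, n = 3).

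The wider pathway held 55 other genes of haem and iron handling, of which 48 were abundant enough to test. The lists were chosen with earlier results of these data known. In cluster 7, 18 of the 48 were called higher and 2 lower, beside 19.7% and 9% of all genes, with a median log2 fold change of 0.23. Cd163, which encodes the scavenger receptor for haemoglobin bound to haptoglobin, was at 107, 163 and 231 CPM against a mean of 5.998 elsewhere (6.02, SE 0.18, adjusted p = 9.7e-22, edgeR). Steap4 and Steap3, which encode metalloreductases, rose by 5.58 and 1.83, and Cp, the gene of the ferroxidase ceruloplasmin, by 2.57. Steap4 rested on 13, 11 and 66 UMIs (9.15, 9.10 and 16.1 CPM, against a mean of 0.645 elsewhere). Some other sums held no Steap4 UMI, so its fitted size is uncertain. Per mouse it differed by 3.08, 3.06 and 3.32 in log2(CPM + 1). In iron uptake and intracellular transport, a list that also holds Tfrc, Trf and Slc11a1, 8 of the 12 genes tested were called higher, Tfrc among them. Slc7a11, a cystine transporter gene driven by the stress factor NRF2, was called lower (-1.44), as was the haem-binding protein gene Hebp1 (-0.41).

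In cluster 4, 9 of the 48 genes were called higher, among them Cd163 (3.02), Steap4 (2.92), Cp (1.27) and Slc39a8 (1.22). Cd163 was at 12.2, 23.8 and 37.4 CPM there, against a mean of 15.5 elsewhere, which includes cluster 7. Steap4 was at 2.23, 1.46 and 2.99 CPM against 1.26, from 4, 17 and 68 UMIs. Some other sums held no UMI of these genes, and the fitted sizes depend on them. Per mouse, Steap4 differed by 1.29, 0.886 and 1.08 in log2(CPM + 1). Cluster 15 had Steap3 (2.44), Cd163 (2.23), Slc7a11 (1.49) and Slc39a14 (1.16) called higher, and Spic (-1.49), Hebp1 (-0.74), Slc25a28 (-0.51) and the ferritinophagy receptor gene Ncoa4 (-0.45) lower.

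Targets of NRF2 outside iron handling formed a list of 8 genes, 7 of them tested, and Hmox1 is itself a target of NRF2. In clusters 2, 5 and 15, 3 of the 7 were called higher in each, beside 11.8%, 17.3% and 18% of all genes. Clusters 3 and 13 had 2 of the 7 called higher, beside 10.7% and 3.53% of all genes. In cluster 10, 3 were called lower and 1 higher, beside 8.81% and 26.2% of all genes. Cluster 12 also had 3 lower and 1 higher, beside 13% of all genes in either direction. Differences between these genes and Hmox1 were not tested. In inflammatory-like cluster 2, Srxn1 (1.78), Txnrd1 (1.21), Slc7a11 (0.85) and Nfe2l2, the gene of NRF2 (0.65), were called higher, and Hmox1 was at 169, 249 and 305 CPM (log2 fold change -0.02, SE 0.39). In cluster 5, Srxn1 (1.52), Txnrd1 (1.16), Slc7a11 (0.90) and Nfe2l2 (0.56) were higher too. Cp (-2.39) and Hmox2 (-0.41) were lower there. Hmox2 turned to 0.18 when the cell with the most UMIs was taken from every cluster and mouse. That left cluster 13, part of the reference, with no Hmox2 UMI. In cluster 10, where Slc40a1 was called higher, Srxn1 (-2.50), Slc7a11 (-2.12), Slc39a14 (-2.0) and Txnrd1 (-1.72) were lower and Osgin1 (1.71), Keap1 (0.89), Urod (0.75) and Cpox (0.68) higher. In hypoxia-like cluster 6 the haem-sensing repressor gene Bach1 (-0.68) and the iron regulator gene Hfe (-0.60) were lower, and Steap3 (1.02), Gclm (0.59), Lrp1 (0.49) and Alad (0.41) higher.

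Across single macrophages, co-expression of the 10 genes was weak. In cells thinned to 2000 UMIs, Fth1 and Ftl1 had Spearman correlations of 0.438, 0.351 and 0.221 in mice 1, 2 and 3. Hmox1 and Ftl1 had 0.217, 0.148 and 0.142, and Blvrb and Ftl1 0.182, 0.177 and 0.102. Hmox1 had a mean correlation of -0.001 with Fth1, 0.038 with Slc40a1 and -0.008 with Trf. These are descriptions over 613, 1981 and 6688 cells that share a library and a fixed depth. In such sparse counts weak values carry little. Thinned to 5000 UMIs, Hmox1 and Ftl1 had 0.313, 0.229 and 0.190, and Blvrb and Ftl1 0.306, 0.175 and 0.177. Fth1 and Ftl1 had 0.395, 0.338 and 0.236 at that depth. Within clusters, Hmox1 and Fth1 had a mean of 0.047 at 2000 UMIs and 0.069 at 5000.

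Across the 45 sums of mouse and cluster, with each mouse's mean removed, Hmox1 correlated with Slc40a1 (Pearson's r = 0.675), Blvrb (0.541) and Tfrc (0.472). Over the 39 sums without the shallow clusters the values were 0.497, 0.697 and 0.624. Hmox1 and Fth1 were at 0.062 and -0.27 over these sets. Blvra and Slc48a1 were at 0.919 over all sums but 0.633 without the shallow clusters, and Fth1 and Ftl1 at 0.765 and 0.343, so that the shallow clusters carried much of both. Sums of a mouse share a library, and these values are descriptions.

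Among 6773 genes, those whose pattern over the 45 sums was most like Tfrc were Cd163 (r = 0.845), Snx2 (0.828) and Tppp3 (0.808). Most like Hmox1 were Gas6 (0.732), Phf23 (0.730) and Nfatc2 (0.720), and most like Slc40a1 were Kif3b (0.715), Apoc4 (0.714) and Fech (0.714), which encodes the last enzyme of haem synthesis. Most like Fth1 were Ucp2 (0.833), Ptms (0.809) and Gngt2 (0.804), and most like Trf were Asah1 (0.677), Mcfd2 (0.653) and Pla2g7 (0.638). Without the shallow clusters, in the same order, the values fell to 0.612, 0.481 and 0.502 for Fth1 and to 0.564, 0.567 and 0.539 for Slc40a1. Those of Hmox1 were then 0.766, 0.791 and 0.605, and those of Tfrc and Trf were 0.727 or more. Gas6, Apoc4 and Tppp3 had been used to form the clusters.

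The tail of the Hmox1 distribution was then described by itself. Cells with at least 5 Hmox1 UMIs after thinning to 2000 UMIs numbered 14, 32 and 168 in mice 1, 2 and 3, or 2.28%, 1.62% and 2.51% of macrophages. The limit was chosen after the values had been seen, 7, 21 and 67 cells lay just under it at 4 UMIs and 3, 9 and 37 on it, and no test was made. These 214 cells held 41.2%, 34.2% and 40.8% of Hmox1 UMIs of the 3 mice. Their median depth was 17626.5, 13065.5 and 8915.5 UMIs, against 15892, 14263 and 9572 in other macrophages. With the mice pooled, they made up 10.0% of cluster 7 (70 of 699 cells), 6.07% of cluster 12 (33 of 544) and 2.66% of cluster 4 (30 of 1127), and 0.146% of cluster 1 (1 of 685). Mouse 3 held 61 of the 70 cells of cluster 7. By mouse the share was 3.19%, 5.88% and 12.1% in cluster 7 and 7.32%, 8.49% and 5.29% in cluster 12. Cluster 7 thus exceeded cluster 12 in mouse 3 only, and in mouse 1 clusters 4 (6.38%) and 6 (6.82%) also exceeded it.

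The cells rich in Hmox1 were compared with other cells of the same clusters and mouse. Slc40a1 was at 103, 109 and 115 CPM in them and at 21.8, 9.67 and 10.8 CPM in the others, log2 ratios of 2.19, 3.37 and 3.31. Slc48a1 was at 152, 129 and 163 CPM against 58.4, 51.0 and 53.9 CPM (1.37, 1.32 and 1.58). Blvrb was higher by 0.74, 0.43 and 0.87, Ftl1 by 0.72, 0.74 and 0.69 and Fth1 by 0.59, 0.56 and 0.65. Haem transporter, reductase, ferritin and exporter genes were thus higher in all 3 mice. Blvra differed by 0.14, -0.01 and -0.03 and Trf by -0.06, -0.12 and -0.03.

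**Figure D5:**
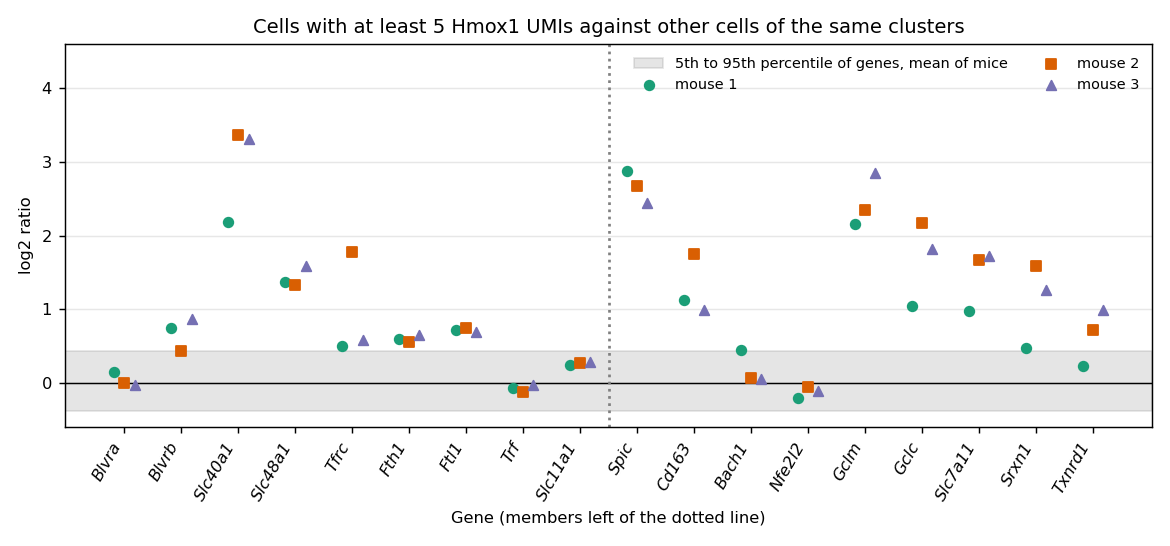
Log2 ratio of CPM in cells with at least 5 Hmox1 UMIs (of 2000) to other cells of the same clusters, by mouse. The grey band is the 5th to 95th percentile (-0.39 to 0.44) of the mean ratio over genes of at least 50 CPM. Slc40a1, Slc48a1, Spic and Gclm lie above the band in all 3 mice, and Blvra, Trf and Nfe2l2 lie within it.

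Slc40a1 rested on few cells. It had a UMI in 3 of 14, 9 of 32 and 41 of 168 cells rich in Hmox1 (21.4%, 28.1% and 24.4%), against 13.0%, 10.3% and 9.10% of the other cells. Without the cell with the most Slc40a1 UMIs in each mouse, the log2 ratios were 0.63, 2.30 and 3.17. At a limit of 10 Hmox1 UMIs, mouse 1 had 4 cells and none had a Slc40a1 UMI, while the ratios of mice 2 and 3 were 4.46 and 4.38. The Tfrc ratios of 0.50, 1.77 and 0.58 became -0.81, 0.46 and 0.34 without the top cell.

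Over 2799 genes of at least 50 CPM in either set, the median log2 ratio was -0.05 and 16.3% were higher in all 3 mice. Ranked by the lowest of the 3 mice, and after Hmox1 itself, the leading genes were Spic, Slc40a1, Gclm, Slc48a1, Prdx1 and Lyve1. Spic encodes a transcription factor needed by the iron-recycling macrophages of the spleen, and it stood at 70.7, 78.3 and 42.0 CPM against 8.72, 11.4 and 6.94 CPM (2.88, 2.68 and 2.44). Gclm, which encodes a subunit of the enzyme that starts glutathione synthesis, was higher by 2.15, 2.34 and 2.85, and its partner Gclc by 1.04, 2.17 and 1.82. All 8 listed NRF2 targets outside iron handling were higher in all 3 mice, with mean log2 ratios from 0.35 (G6pdx) to 2.45 (Gclm). Of these, Nqo1 was at only 3.54, 1.70 and 2.10 CPM in the cells rich in Hmox1. Its ratios were -0.70, -0.51 and 0.45 without the top cell of each mouse, and Txnrd1 in mouse 1 turned to -0.11. The RNA of the regulators Nfe2l2 (-0.20, -0.05 and -0.11) and Bach1 (0.45, 0.07 and 0.06) differed little in mice 2 and 3. Dissociation genes summed to 16311, 11920.0 and 11025 CPM in these cells and 8369, 9249.9 and 8612 CPM in the others, and their part in the ratios was not tested.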

How the data were processed

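The authors' deposited matrices held raw UMI counts per gene and barcode from a 10x 3′ v3 kit, 12454677, 41097369 and 86178419 UMIs for mice 1, 2 and 3. Per the submitters' processing notes they were made with Cell Ranger 3.0.2 on build mm10. For the gene annotation behind the counts, the version is not given in the sources used here. From the deposited counts, CPM (counts scaled to the UMI total of a mouse or sum) and percent of cells with a UMI were computed per mouse. Scrublet in scanpy 1.11.5 (Python 3.11.15) called 2, 9 and 0 doublets, too few for a working caller, and removal of the highest scores was an alternative. Leiden clustering (leidenalg 0.10.2, resolution 1.0) used 2000 variable genes scaled within mice, 30 components and 15 neighbours.

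Counts were summed per mouse and cluster where at least 10 cells were present, and tested in edgeR 4.0.16 (R 4.3.3; TMM, filterByExpr, robust quasi-likelihood F test, 2-sided). The SE is the log2 fold change divided by the square root of F. The mice are biological replicates, and clusters of a mouse share its tumour and library, which makes mouse the pairing in the fit. The procedure was tested on simulated data. DESeq2 1.42.0 was an alternative. Genes used to cluster were not tested. The 10 genes, the pathway and marker lists and the limit for cells rich in Hmox1 were chosen with earlier results of these data known. The 10 genes are named whatever their result, as are at most 4 other pathway genes per cluster and direction that passed with the same sign in every mouse fitted, and for 5 genes the 3 of most like pattern at a mean of 10 CPM or more. Correlations used log2(CPM + 1). Genes leading the cells rich in Hmox1 were named after their values were seen. Intervals are exact binomial at 95% and cover counting error only. Gene models came from GENCODE on mm10.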

Additional observations from a re-analysis of the deposited data

How the results depend on the processing

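Of the 44 calls, 10 were kept under every alternative that gave a value: Blvra in clusters 7 and 13, Fth1 in clusters 5, 6, 8 and 13, Ftl1 in cluster 13, Slc48a1 in cluster 15, Tfrc in cluster 7 and Trf in cluster 2. Leaving out a mouse gave 11 to 30 pairs called higher and 7 to 19 lower, against 28 and 16 with all mice. Fewer clusters reach 2 mice when mouse 2 or 3 is left out, and the same pairs of those clusters gave 23 and 14 with all mice. Without mouse as a block, that is, without the pairing of clusters by mouse, 18 pairs were called higher and 6 lower, and 24 of the 44 calls were kept. Pairs called lower were 26 without the filter on low counts, 21 with at least 1000 genes per cell (10 in the same clusters before), 11 at Leiden resolution 0.5 (6 before) and 11 when clusters and levels were taken from separate UMIs (7 before), and the cause was not tested. DESeq2's Wald test kept 32 calls and DESeq2's size factors 31. Leaving the shallow clusters out of the reference kept 34. Cluster 7 had no matching cluster at resolution 0.5, at a limit of 25% mitochondrial UMIs or with separate UMIs, so its calls were not checked there. In shallow cluster 0, Fth1 turned to -0.0487 at resolution 0.5 and -0.0369 with separate UMIs, and Slc48a1 to -0.0224 at resolution 0.5. In cluster 13, Trf turned to 0.12 at a limit of 25% mitochondrial UMIs and Slc25a28 to -0.0545 at 8%. Hmox2 in cluster 5 turned to 0.18 when the cell with the most UMIs was taken from every cluster and mouse. Cluster 13, part of the reference, had 1 Hmox2 UMI in each mouse and kept none. The cause of these reversals was not tested. The levels over all cells moved by less than 1 SD in 70 of 70 checks, and 40 of 100 shares of cells moved by more than 1 SD. Checks that left out a mouse could not fail, since a mean of 3 mice cannot move by 1 SD that way. The checks of shares include thinning, which takes UMIs from cells and so lowers shares by design.

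With 3 mice, differences that do not pass are not shown to be absent. UMIs report RNA and say nothing of ferritin or ferroportin protein. Tfrc and Slc40a1 were sparse, with a median of 0 UMIs per cell and a UMI in 6.94% and 10.6% of cells as sequenced (means of the mice). Doublets could not be called reliably. Cluster identity was rebuilt here, and no macrophages from outside a tumour were analysed here.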

Other observations

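A cell of mouse 2 in LYVE-1 resident-like cluster 4 carried 2640 UMIs of 7 erythroid genes among 36781 UMIs, with 1871 of Hbb-bs, 687 of Hba-a1 and 6 of Alas2, the erythroid enzyme that starts haem synthesis. The same barcode had 28 UMIs of Csf1r and 9 of Adgre1, which encode macrophage receptors. It had 123 Hmox1 UMIs, 1002 of Fth1, 600 of Ftl1 and 2 of Slc40a1. The next cell of mouse 2 had 2 erythroid UMIs, and the highest in mice 1 and 3 had 3 and 7. With this barcode the erythroid genes of the mouse 2 cells rich in Hmox1 stood at 4496 CPM, against 3.54 and 4.72 CPM in mice 1 and 3.

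Among genes lower in the cells rich in Hmox1 than in other cells of the same clusters, Slamf9 had log2 ratios of -1.10, -0.78 and -0.81 in mice 1, 2 and 3. Those of Ms4a4c were -1.92, -0.71 and -1.08, and those of Scimp -1.09, -0.99 and -0.69. Among genes higher there, Clec4d, which encodes a C-type lectin receptor of myeloid cells, had ratios of 1.21, 1.52 and 1.19. Fcna had 2.60, 1.53 and 1.21, and Ccl24 had 1.52, 1.19 and 1.09. These genes were picked after their values were seen, and no test was made.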
